A study of Mus musculus with 22 samples.

Results

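The genes described here were 26 genes of GABA signalling: those for the enzymes that make and break down GABA, its vesicular and plasma membrane transporters, subunits of the GABA-A and GABA-B receptors, and a pair of proteins of the inhibitory postsynapse. They were chosen by symbol from the Ensembl gene identifiers of the count table, and all 26 were found among its 53379 genes. The choice used gene names and no measured value, although earlier results of these data were known when it was made. All 26 passed the filter on low counts, which kept 40714 genes.

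GABA is the main inhibitory transmitter of the adult hippocampus. Inhibitory interneurons make it from glutamate, load it into vesicles and release it onto ionotropic GABA-A receptors, which are pentamers of alpha, beta and a further subunit, and onto metabotropic GABA-B receptors. Neurons and astrocytes then take it up again, and receptors that hold the delta or the alpha 5 subunit lie largely outside synapses and carry tonic inhibition.

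The study asked how neurons and glia of the hippocampus opposite to an epileptic focus respond in the first day. Adult male C57/BL6N mice arrived at 8 weeks of age and were acclimatized for 4 weeks. Under medetomidine and ketamine anaesthesia they received kainate (70 nl, 20 mM), a glutamate receptor agonist that evokes status epilepticus, into the cortex above the right hippocampus, or 0.9% NaCl in the sham group, and all had buprenorphine afterwards. The left hippocampi were taken 24 h after status epilepticus from 8 mice per treatment, those of 4 or 2 mice were pooled, and nuclei were sorted on the neuronal antigen NeuN. Kainate mice without convulsive seizures had been left out, so the kainate group stands for mice that seized. The mRNA of NeuN+ nuclei, called neurons, and of NeuN- nuclei, called glia, gave 3 kainate neuron, 3 sham neuron, 3 kainate glia and 2 sham glia libraries (sham replicates 1 and 3). A NeuN- nucleus may also come from a vascular cell or from a neuron that stained weakly.

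The libraries held 12058875 to 45428465 counted reads, and every member had at least 1 read in every library. The second kainate glia library and the first sham glia library started from 0.05 ng of RNA and 15 cycles of PCR, whereas 1 ng and 10 cycles were used for the rest. The summed level of the neuronal markers Rbfox3, Snap25 and Syt1 ran from 1337 to 3301 normalized counts per 1000000 reads (CPM) in neurons and from 270 to 461 in glia, and that of 4 oligodendrocyte markers from 4028 to 33651 CPM in glia and from 175 to 408 in neurons. No marker of these lists was at 0 in any library. Levels followed the replicate number within each group. Replicate 1 had the highest summed level of the neuronal markers in each neuron group and of the astrocyte, oligodendrocyte and microglia markers in each glia group. The levels are scaled by TMM factors, which also rose with the number. They ran from 0.725 to 1.07 in kainate neurons and from 0.700 to 1.01 in sham neurons. In glia they ran from 0.864 to 1.60 after kainate and from 0.762 to 1.68 after sham. The overlap of groups below holds on this scale, and the part of the scaling in these patterns was not tested. Without a block, the p-values below measure the spread between libraries, each made from a pool of hippocampi. Neuron and glia libraries of 1 number and treatment came from the same pool, and that fit treats them as independent. With a block, the p-values measure the spread of differences within the pairs of the block.

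In the plot of levels by library, the 26 genes spanned from below 1 CPM to 798 CPM. For 6 of them (Gabra6, Gabre, Gabrq, Gabrp, Gabrr1 and Gabrr3) no library reached 6 CPM. Per kilobase of exon, which allows genes to be compared, the highest mean levels in sham neurons (n = 3) were 70.1 ± 28.9 (SD) CPM per kb for Gabbr1, 61.9 ± 38.6 for Gabra5, 59.7 ± 14.1 for Gabbr2 and 53.4 ± 15.8 for Gabra4. The SDs exceeded the steps between these neighbours, so their order was not fixed. Among the genes below these, the delta subunit gene Gabrd stood at 25.7 ± 12.4 and Gad1 at 19.8 ± 9.14 CPM per kb. In sham glia (n = 2), Gabbr1 at 39.5 ± 25.1, the transporter gene Slc6a11 at 37.5 ± 26.2 and the rho 2 subunit gene Gabrr2 at 31.8 ± 37.2 CPM per kb were the highest, with SDs as wide as the gaps between them.

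**Figure D1:**
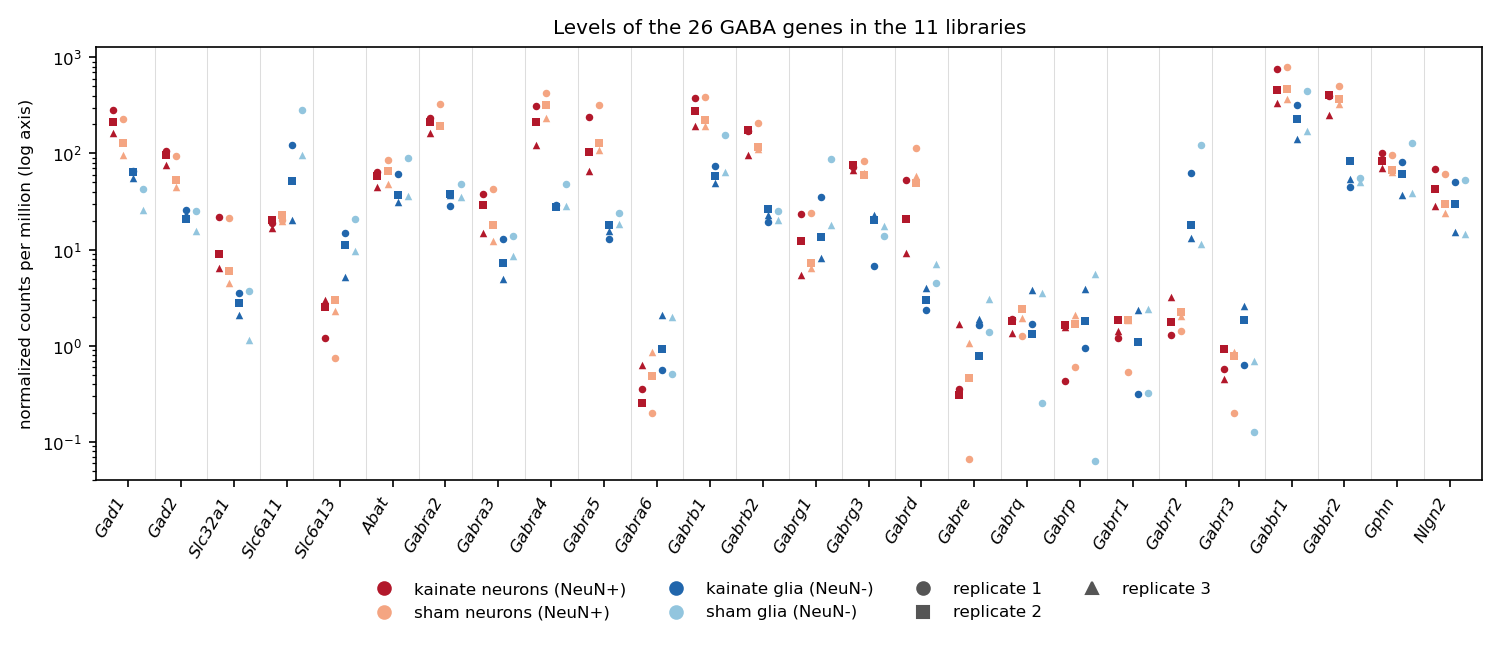
Normalized CPM (log axis) of the 26 GABA genes in each of the 11 libraries, with colour for the group and marker shape for the replicate number. Most receptor subunit genes stood higher in the neuron libraries (reds) than in the glia libraries (blues), Slc6a11, Slc6a13 and Gabrr2 stood higher in glia, and 6 genes stayed below 6 CPM.

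Neurons and glia were compared first, over both treatments. In neurons 13 of the 26 members were higher and 6 were lower, and 7 did not pass FDR below 0.25, the threshold of the study. Among all genes tested, 16.8% were called higher and 20.4% lower. The median log2 difference was 0.68 over the members and -0.47 over all genes. The groups did not overlap for 11 members higher and 2 lower in neurons, against 8.92% and 6.31% of all genes. Since these are bulk libraries, fewer nuclei of a type and less RNA per nucleus cannot be told apart here or in any later comparison.

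The genes for GABA synthesis and release were higher in neurons. Gad1 encodes the GAD67 form of glutamate decarboxylase and lies on chromosome 2 (mm10, 70553072 to 70602014). It stood at 284, 215 and 165 CPM in kainate neurons, 230, 127 and 96.7 CPM in sham neurons, 65.7, 64.0 and 55.6 CPM in kainate glia, and 42.6 and 25.8 CPM in sham glia. All 6 neuron libraries thus exceeded all 5 glia libraries, by 3.98-fold in the fit (log2 difference 1.99 ± 0.31, SE; adjusted p = 0.00037). Gad2, for the GAD65 form, was 3.52-fold higher in neurons (log2 1.82 ± 0.28). The vesicular GABA transporter gene Slc32a1 was 4.39-fold higher (log2 2.13 ± 0.52), at 4.51 to 22.0 CPM in neurons and 1.14 to 3.71 CPM in glia. It shares 697 bases of exon with Gm14205 on the other strand, and the strand setting of the counting is not given in the sources used here, so reads of the pair cannot be told apart.

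The genes of the plasma membrane transporters showed the opposite pattern. Slc6a11, the gene of the astrocytic transporter GAT-3, stood at 16.8 to 22.7 CPM in the 6 neuron libraries and at 20.3 to 283 CPM in glia. Kainate glia replicate 3, at 20.3 CPM, was the one glia library within the range of the neurons. The difference was 5.59-fold (log2 -2.48 ± 0.41, adjusted p = 0.000593), and log2 -3.18 in sham libraries only and -1.79 in kainate libraries only, called in both. Slc6a13, for GAT-2, stood at 0.739 to 3.02 CPM in neurons and 5.23 to 20.9 CPM in glia, without overlap, and was 5.82-fold lower in neurons (log2 -2.54 ± 0.43). Abat encodes GABA transaminase, which breaks GABA down. It was near even, at 44.5 to 84.7 CPM in neurons and 31.1 to 89.1 CPM in glia, and was called higher in neurons with the pool as a block (log2 0.29 ± 0.17, adjusted p = 0.206) but not without it (log2 0.22 ± 0.30, adjusted p = 0.623).

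Alpha and beta subunit genes of the GABA-A receptor were mostly neuronal. Gabra4 was 8.02-fold and Gabra5 8.66-fold higher in neurons (log2 3.00 ± 0.34 and 3.11 ± 0.42), and Gabra2 and the beta subunit gene Gabrb2 differed by log2 2.54 ± 0.28 and 2.68 ± 0.30. Gabra3 at log2 1.40 ± 0.40 and Gabrb1 at log2 1.75 ± 0.34 showed smaller differences, and the glia libraries of Gabra3 (4.97 to 14.0 CPM) overlapped with the neurons (12.2 to 42.6 CPM). Gabra6, best known from cerebellar granule cells, held at most 2.11 CPM anywhere and was called lower in neurons (log2 -1.39 ± 0.62, adjusted p = 0.158), a call lost without sham glia replicate 3 (log2 -0.74) and without 3 other single libraries.

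The gamma, delta and rho subunit genes parted in direction. Gabrd was 10.5-fold higher in neurons (log2 3.40 ± 0.46), at 9.32 to 115 CPM against 2.38 to 7.14 CPM in glia, and Gabrg3 differed by log2 2.12 ± 0.32. Gabrg1 was higher in glia, with 8.23 to 88.3 CPM against 5.45 to 24.1 CPM in neurons, so that the groups overlapped (log2 -1.28 ± 0.54, adjusted p = 0.133). Gabrg1 stood at log2 -2.08 in sham libraries only (adjusted p = 0.158), at -0.47 in kainate libraries only (adjusted p = 0.72) and at -0.48, not called, without sham glia replicate 1. Gabrr2, whose protein can form receptors without alpha or beta subunits, had the largest difference of all members. It stood at 1.28 to 3.24 CPM in the 6 neuron libraries, and in glia at 63.2, 18.1 and 13.3 CPM after kainate and 122 and 11.5 CPM after sham. No neuron library came near a glia library, and the difference was 22.7-fold (log2 -4.51 ± 0.60, adjusted p = 0.000111).

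The pair of sham glia libraries lay far apart for Gabrr2. Without sham glia replicate 1 its difference was log2 -3.21, without both low-input libraries -3.35, with the pool block -3.95, in sham libraries only -5.12 and in kainate libraries only -3.90, and it was called in each. The other rho subunit genes, Gabrr1 and Gabrr3, and those of the theta and pi subunits, Gabrq and Gabrp, stood below 6 CPM and were not called. The epsilon subunit gene Gabre was called lower in neurons at 0.0671 to 1.67 CPM (log2 -1.46 ± 0.67, adjusted p = 0.167), and at log2 -2.08 without kainate neurons replicate 3. The call of Gabre held in 14 of 22 alternatives and was lost without any of 5 other single libraries, in sham libraries only (adjusted p = 0.312) and in kainate libraries only (adjusted p = 0.597). Of the GABA-B receptor genes, Gabbr2 was far more neuronal (log2 2.72 ± 0.30) than Gabbr1 (log2 1.00 ± 0.38, adjusted p = 0.0917), whose levels of 140 to 445 CPM in glia overlapped with 338 to 798 CPM in neurons. Whether the difference between these genes exceeds their errors was not tested.

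Gphn encodes gephyrin, the scaffold under inhibitory synapses, and Nlgn2 encodes neuroligin 2, an adhesion protein there. Neither was called without a block (log2 0.19 ± 0.33 and 0.36 ± 0.42), and both were called higher in neurons with the pool as a block (log2 0.36 ± 0.20, adjusted p = 0.186, and 0.54 ± 0.17, adjusted p = 0.0316). That block compares the neuron and glia libraries of each pool. It called 16 members higher and 6 lower, against 24.9% and 34.8% of all genes, and the 19 members called without it were among them.

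**Figure D2:**
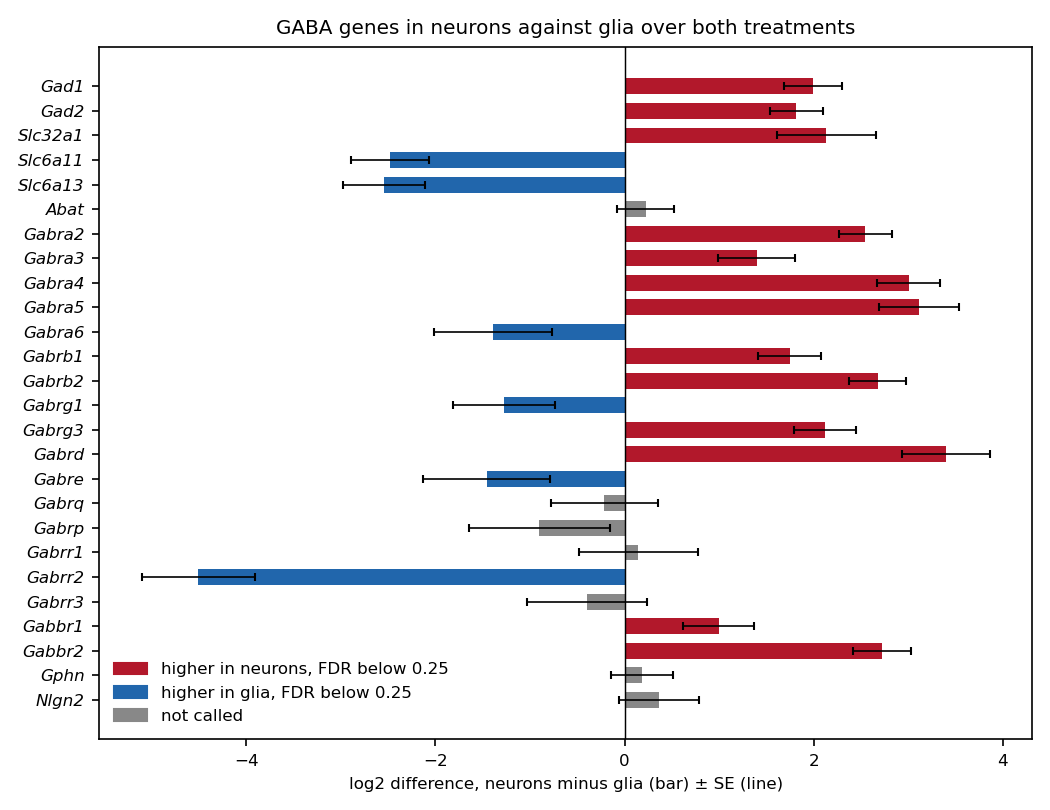
Log2 difference between neurons and glia (bars, with the SE as lines) for the 26 GABA genes over both treatments, by role from synthesis to the postsynapse. The 13 red bars were called higher in neurons and the 6 blue bars higher in glia, among which Gabrr2 reached -4.51, and the 7 grey bars were not called.

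Some members that neighbour each other on a chromosome differed in preference. On chromosome 5 (mm10) Gabrg1 at 70751047 to 70842617, Gabra2 at 70957597 to 71095849, Gabra4 at 71569749 to 71658308 and Gabrb1 at 71658113 to 72149037 lie in a row, and Gabrg1 of these was higher in glia while the other 3 were higher in neurons. Gabra4 and Gabrb1 start head to head, and 46 bases of their exons overlap on opposite strands. On chromosome 7 Gabrg3 and Gabra5 were both higher in neurons, and on the X chromosome Gabre was called lower in neurons, Gabra3 higher, and Gabrq was not called.

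Start regions are shown for Slc6a11 and Gabrg1, both called higher in glia, and for Gabra2, the neighbour of Gabrg1, called higher in neurons. They were picked since the calls part these genes and their windows hold no annotated exon. Each is the 250 bases before the RefSeq start (GRCm38.p6), read 5′ to 3′ on the strand of the gene, with CpG sites in capitals.
Slc6a11, chr6:114130991-114131240, strand +: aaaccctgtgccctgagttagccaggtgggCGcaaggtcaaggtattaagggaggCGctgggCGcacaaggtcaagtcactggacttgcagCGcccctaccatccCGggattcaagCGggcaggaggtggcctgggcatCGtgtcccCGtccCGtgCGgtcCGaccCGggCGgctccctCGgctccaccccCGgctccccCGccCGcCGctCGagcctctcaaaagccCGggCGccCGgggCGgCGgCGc
Gabrg1, chr5:70842618-70842867, strand -: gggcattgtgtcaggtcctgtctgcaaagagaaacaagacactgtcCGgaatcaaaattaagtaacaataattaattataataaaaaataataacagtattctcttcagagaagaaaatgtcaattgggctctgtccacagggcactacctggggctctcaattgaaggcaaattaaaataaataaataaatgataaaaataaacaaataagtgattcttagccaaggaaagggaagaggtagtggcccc
Gabra2, chr5:71095850-71096099, strand -: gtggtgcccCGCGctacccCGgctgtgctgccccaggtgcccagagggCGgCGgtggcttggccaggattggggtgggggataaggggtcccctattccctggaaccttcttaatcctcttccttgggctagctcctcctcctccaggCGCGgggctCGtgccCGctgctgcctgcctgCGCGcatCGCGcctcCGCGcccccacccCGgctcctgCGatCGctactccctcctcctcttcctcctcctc

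The window of Slc6a11 holds 25 CpG sites that of Gabrg1 holds 1, and that of Gabra2 holds 18. Over all member windows the number ran from 0 (Gabra3) to 37 (Gabbr2). The median over all 32851 mouse start windows of this length is 6, and over the 30 windows of the 24 members with an entry it is 9. Of the other members called lower in neurons, Gabre holds 21, Gabra6 holds 2, Gabrr2 holds 1, and the start windows of Slc6a13 hold 2 to 9. The calls of Gabre and Gabra6, both below 6 CPM, held in only 14 and 15 of 22 alternatives. Motifs of activity-regulated factors were searched on both strands. The CRE letters TGACGTCA were in 1.55% of all windows and the AP-1 letters TGANTCA in 6.75%, and in none of the member windows. The Egr letters GCGNGGGCG were in 4.70% of all windows and in 1 member window, at a start of Gabrb2. A match or its absence is a description of these letters only.

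Kainate was then compared with sham in neurons. Without a block, edgeR called 0 of the 26 members at FDR below 0.25, against 0.165% of all genes. The unadjusted p was below 0.05 for 1 member, Gabrd, against 2.09% of all genes, and DESeq2 called 0 members and 1.66% of its genes. The kainate and sham neurons overlapped for every member, where 7.86% of all genes did not overlap. The median log2 difference of the members was 0.07, beside -0.01 over all genes.

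Libraries of the same number deviated together, so the replicate number within each cell type was also fitted as a block, which compares the kainate and sham library of each number. With it 2 members were higher after kainate, Gad1 and Gad2, against 3.19% of all genes, and 3 were lower, Gabra4, Gabra5 and Gabrd, against 1.90%. These 5 calls rest on 3 pairs and 3 residual degrees of freedom. Their errors are not from these pairs alone, since edgeR draws the spread of each gene toward a trend over all genes. The SEs of 0.18 to 0.23 and the p-values thus lean on other genes too.

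Both GABA synthesis genes were higher after kainate in each pair of neuron libraries. The block tests such pair differences, so the agreement of pairs here and below is not separate support for a call. Gad1 stood at 284, 215 and 165 CPM in kainate replicates 1, 2 and 3 and at 230, 127 and 96.7 CPM in the sham replicates. Each kainate library exceeded the sham library of its number. On this scale the ranges of the groups overlapped, with replicate 1 the highest in both, and its scaling factor was the lowest in both (0.725 and 0.700). With the block the difference was 1.53-fold (log2 0.61 ± 0.18, adjusted p = 0.051), and without it log2 0.55 ± 0.39 (adjusted p = 1.00). Gad2 stood at 105, 96.0 and 75.5 CPM after kainate and 94.3, 52.9 and 44.5 CPM after sham, and was 1.51-fold higher with the block (log2 0.60 ± 0.19, adjusted p = 0.0991). The vesicular transporter gene Slc32a1 moved up in the 3 pairs by log2 0.06 to 0.54 but was not called (log2 0.38 ± 0.28, adjusted p = 0.875).

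The 17 interneuron markers, summed, stood at 505 to 869 CPM in kainate neurons and 494 to 985 CPM in sham neurons. With the block 2 of these 17 were higher after kainate, Crhbp and Elfn1, and none lower. As a share of that sum, chosen after the data were seen, Gad1 made 32.6, 31.6 and 32.6% in kainate neurons and 23.3, 25.7 and 19.2% in sham neurons. The groups did not overlap on this scale, and no test was made. Gad2 made 12.1 to 14.9% after kainate and 8.81 to 10.7% after sham. The part of interneuron number in these differences was not tested.

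The 3 genes that were lower encode the delta, alpha 4 and alpha 5 subunits. Gabrd stood at 52.4, 21.0 and 9.32 CPM in kainate neurons and at 115, 49.1 and 57.8 CPM in sham neurons. Each kainate library lay below its sham library, by log2 1.12 to 2.57 in size, and kainate replicate 1 alone reached into the sham range. With the block Gabrd was 3.12-fold lower (log2 -1.64 ± 0.23, adjusted p = 1.07e-06). It was also called in each of the 6 fits that left out 1 neuron library and so kept 2 pairs (log2 -1.91 to -1.18), an alternative added after the data were seen. A library whose partner is gone adds nothing to the block contrast. The fits without the kainate or the sham library of a pair are thus near repeats, here and below. For Gabrd both gave log2 -1.91 without replicate 1, -1.86 without replicate 2 and -1.18 without replicate 3. Without the block the difference was log2 -1.42 ± 0.54 (unadjusted p = 0.0202, adjusted p = 1.00).

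Gabra4, whose protein pairs with delta in granule cells of the dentate gyrus, stood at 312, 211 and 123 CPM after kainate and 424, 319 and 232 CPM after sham. It was lower in each of the 3 pairs and 1.57-fold lower with the block (log2 -0.65 ± 0.18, adjusted p = 0.0319). Gabra5 stood at 237, 104 and 66.1 CPM against 316, 128 and 108 CPM and lay close to the threshold (log2 -0.48 ± 0.18, adjusted p = 0.247). Without replicate 3 of either neuron group, Gad1 stood at log2 0.53, Gad2 at 0.51 and Gabra4 at -0.52 with the block, and with 2 pairs left none of them was called. The call of Gabra5 was lost without replicate 1 (log2 -0.51) or 3 (log2 -0.36) of either neuron group or without sham glia replicate 1 (log2 -0.48). Among the excitatory neuron markers, Camk2a was lower and Slc17a6 higher with the block. The sum of the 6 was 1861 to 3790 CPM in kainate and 2159 to 4316 CPM in sham neurons. Non-neuronal markers also moved in these libraries. The microglia sum was 62.4 to 66.7 CPM after kainate and 41.2 to 61.4 CPM after sham, the choroid plexus sum 36.1 to 75.2 CPM and 30.8 to 41.3 CPM, and the block called 2 of 5 astrocyte markers higher and 2 lower. The sum of the meningeal fibroblast markers was lower after kainate in each pair, at 67.9, 30.9 and 25.9 CPM against 126, 49.5 and 44.7 CPM, and the block called 1 of 4 lower. The part of these markers in the neuron differences was not tested.

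Relative to the sum of the 3 neuronal markers, Gabrd made 1.94, 1.02 and 0.697% in kainate neurons and 3.48, 2.73 and 3.80% in sham neurons, without overlap. Gabra4 made 9.20 to 11.5% after kainate and 12.8 to 17.8% after sham, also without overlap, whereas Gabra5 at 4.94 to 8.78% overlapped with 7.11 to 9.57%. These shares were added after the data were seen and carry no test. The other 21 members were not called in neurons with or without the block. Gabbr1, for example, differed by log2 -0.08 ± 0.17 and Gabrb2 by 0.03 ± 0.19 with it, while the 6 genes below 6 CPM had SEs of 0.45 to 0.66, at which differences of this size were not detectable.

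**Figure D3:**
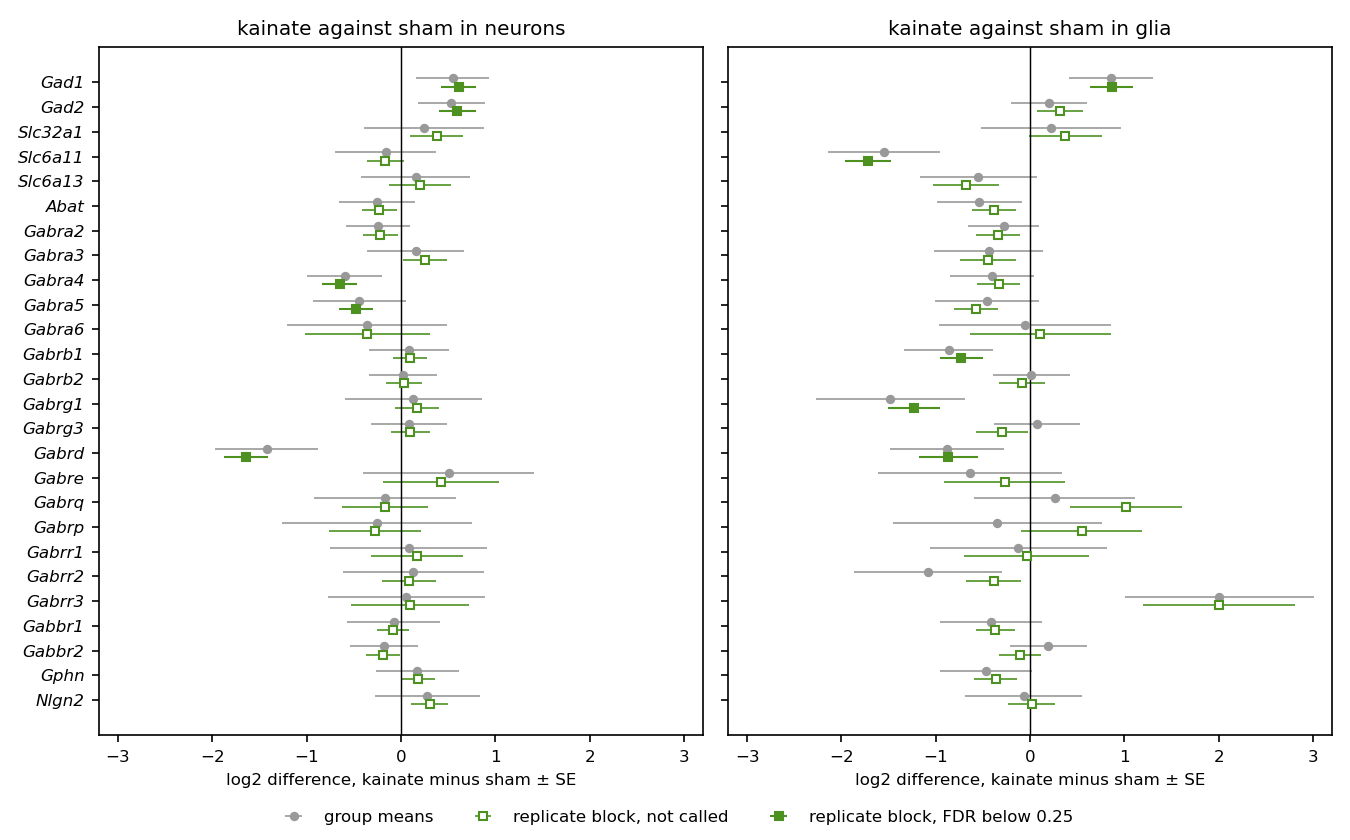
Log2 difference between kainate and sham with its SE for the 26 GABA genes in neurons (left) and glia (right), from the fit of group means (grey circles) and with the replicate block (green squares, filled at FDR below 0.25). Gad1 was above 0 and Gabrd below 0 with the block in both cell types, and the grey lines are wider than the green ones for nearly all genes.

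In glia, 0 of the 26 members were called without a block, against 0.101% of all genes. Slc6a11 was the 1 member with an unadjusted p below 0.05, against 2.05% of all genes, and DESeq2 called 0 members and 1.43% of its genes. Kainate and sham glia did not overlap for 3 members, Gad1 higher and Gabra5 and Gabrd lower, against 8.22% of all genes. Without sham glia replicate 3, which leaves 1 sham glia library assumed to vary like the other groups, 6 members were called: Gabrq and Gabrp higher and Slc6a11, Gabrb1, Gabrg1 and Gabrr2 lower, against 6.59% of all genes and at a median log2 difference over all genes of 0.76. For Gabrp this turns the direction. The median over the members was -0.38 in the fit of all libraries, beside 0.02 over all genes.

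With the replicate block, Gad1 was higher, against 2.93% of all genes, and Slc6a11, Gabrb1, Gabrg1 and Gabrd were lower, against 2.86%. This contrast rests on replicates 1 and 3, since kainate glia replicate 2 has no sham partner, and replicate 1 pairs a sham library of low RNA input with a kainate library of full input.

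Slc6a11 fell most. It stood at 123, 51.4 and 20.3 CPM in kainate glia and at 283 and 95.9 CPM in sham glia. Kainate replicate 1 lay above sham replicate 3, so the groups overlapped, but each kainate library was below its own sham library, by log2 2.21 and 1.20 in size. With the block it was 3.29-fold lower (log2 -1.72 ± 0.24, adjusted p = 1.52e-06), and the block rests on these pairs alone. Leaving out 1 of the 4 paired glia libraries leaves a single pair, at log2 -2.27 to -1.20. In such a fit the error comes from the neuron pairs and from the spread drawn over all genes. A call kept or lost there thus says nothing of the spread in glia, for this gene and those below. Without both low-input libraries the fit of group means gave log2 -0.40.

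Markers of several cell types moved in the same libraries. The sum of 5 astrocyte markers was 265 to 1889 CPM in kainate glia and 792 to 3105 CPM in sham glia, and 3 of the 5 (Slc1a3, Gja1 and Aldoc) were lower with the block and none higher. The block also called 3 of 4 oligodendrocyte markers lower (sum 4028 to 22881 CPM after kainate, 7641 to 33651 CPM after sham) and 2 of 5 microglia markers (557 to 1565 CPM and 611 to 3163 CPM). It called 2 of 3 choroid plexus markers higher, with sums of 20.7 to 91.0 CPM after kainate and 15.6 to 18.5 CPM after sham. As a share of the astrocyte sum, Slc6a11 made 6.49, 6.67 and 7.68% in kainate glia and 9.10 and 12.1% in sham glia, without overlap and without a test. The part of astrocyte number or of the other cell types in the glia differences was not tested. Slc6a13, the other uptake transporter, stood at 14.9, 11.1 and 5.23 CPM against 20.9 and 9.57 CPM and was not called (log2 -0.68 ± 0.35 with the block, adjusted p = 0.529).

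Gabrg1, a gamma subunit gene of glial progenitors and astrocytes, stood at 35.4, 13.7 and 8.23 CPM in kainate glia and at 88.3 and 18.1 CPM in sham glia. Sham replicate 1 stood far above the rest, and the other 4 libraries overlapped. With the block Gabrg1 was 2.35-fold lower (log2 -1.23 ± 0.28, adjusted p = 0.00394). Without sham glia replicate 1 the block gave log2 -1.14 and no call (adjusted p = 0.394). The fit of group means, which gave log2 -1.48 ± 0.79 with all libraries, gave 0.10 without that library and 0.29 without both low-input libraries. Markers of oligodendrocyte precursors were lower in 3 of 3 with the block, and their sum was 201 to 824 CPM in kainate and 453 to 1370 CPM in sham glia. As a share of it Gabrg1 made 4.30, 3.43 and 4.10% after kainate and 6.44% in sham replicate 1, and sham replicate 3 lay within the kainate range.

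Gabrb1 stood at 73.8, 58.5 and 49.5 CPM in kainate glia and 156 and 64.2 CPM in sham glia, and was 1.66-fold lower with the block (log2 -0.73 ± 0.22, adjusted p = 0.0681). The call was lost without replicate 1 of either glia group (log2 -0.40 and -0.37 with the block), and the difference was -1.08 and -1.09 without replicate 3. The fit of group means gave log2 -0.86 ± 0.47 with all libraries and -0.04 without both low-input libraries. As a share of the astrocyte sum, Gabrb1 made 3.91, 7.59 and 18.7% after kainate and 5.04 and 8.11% after sham, so the groups overlapped. Gabrd made 0.738, 0.795 and 1.33% of the neuronal marker sum in kainate glia and 0.969 and 2.65% in sham glia, which also overlapped. In CPM Gabrd was low in glia, at 2.38, 3.02 and 3.99 against 4.47 and 7.14. All 3 kainate libraries lay below both sham libraries (log2 -0.87 ± 0.31 with the block, adjusted p = 0.174), and without replicate 1 or 3 of either glia group the difference stayed at log2 -0.91 to -0.84, but was not called.

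Gad1 stood at 65.7, 64.0 and 55.6 CPM in kainate glia and at 42.6 and 25.8 CPM in sham glia, so that every kainate library exceeded both sham libraries. With the block it was 1.82-fold higher (log2 0.87 ± 0.23, adjusted p = 0.0188), a call lost without replicate 3 of either glia group (log2 0.63 and 0.62). The sum of the neuronal markers in glia was 301 to 380 CPM after kainate and 270 to 461 CPM after sham, with 0 of 3 called with the block. Gad1 made 20.4, 16.8 and 18.5% of that sum after kainate and 9.22 and 9.58% after sham, without overlap and without a test. The interneuron markers summed to 216 to 347 CPM in kainate glia and 257 to 590 CPM in sham glia, with Crhbp higher and Ndnf and Erbb4 lower of 17 with the block. Gad2 in glia, at 20.8 to 25.9 CPM against 15.8 and 24.9 CPM, was not called (log2 0.31 ± 0.24 with the block, adjusted p = 0.84). The part of neuronal nuclei in the NeuN- fraction in these values was not tested.

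Gabrr3 had the largest positive difference in glia (log2 2.00 ± 0.80 with the block, adjusted p = 0.265) and was not called. Its values were 0.627, 1.83 and 2.59 CPM against 0.128 and 0.694 CPM, from few reads, and 279 bases of its exons overlap 1700022E09Rik on the other strand. Gabrr2, the most glial member, stood lower after kainate in replicate 1 and higher in replicate 3, and was not called (log2 -0.39 ± 0.29 with the block, adjusted p = 0.82).

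**Figure D4:**
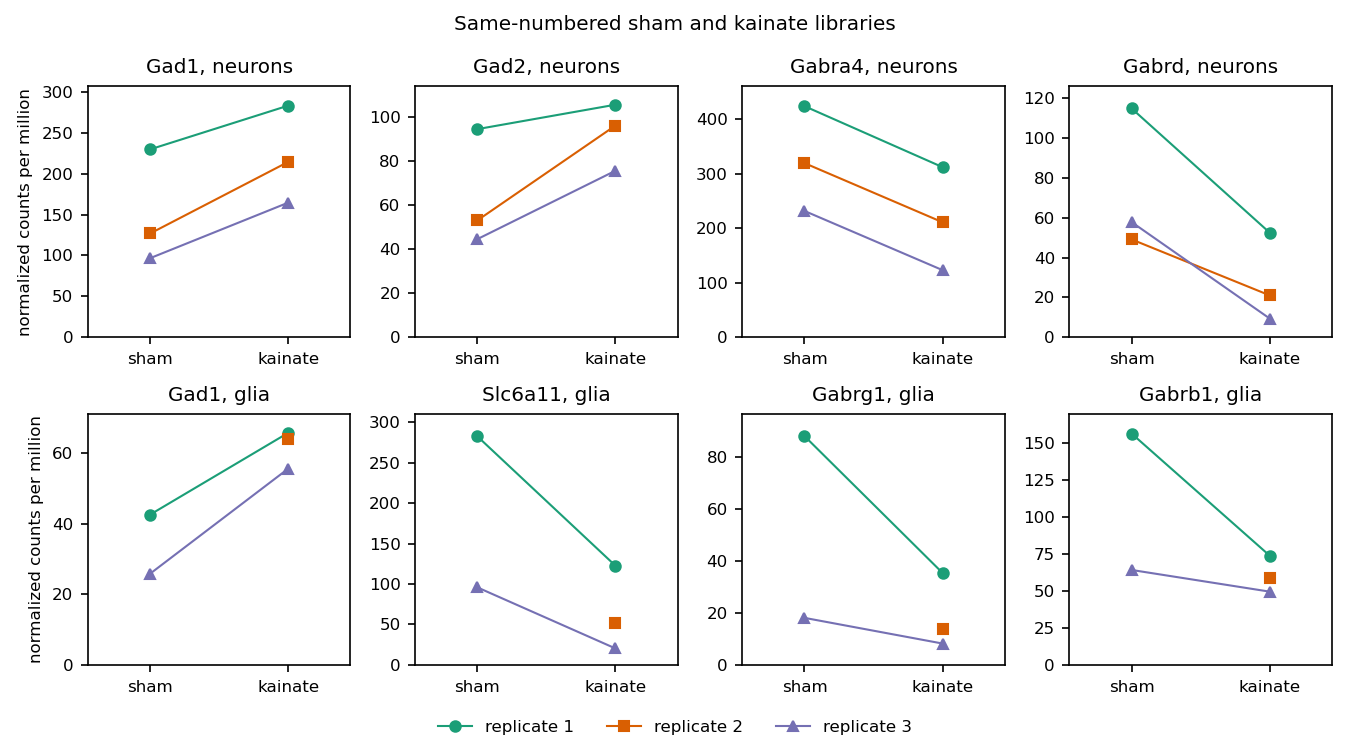
Normalized CPM in sham and kainate libraries, with lines joining libraries of the same replicate number, for 4 members in neurons (top) and 4 in glia (bottom). Lines rise for Gad1 and Gad2 and fall for the others in every pair, and kainate glia replicate 2 has no sham partner. The members shown were called with the replicate block, which tests these pair differences, so the agreement of pairs is not separate support. Uncalled members such as Gphn, Nlgn2, Abat and Gabbr1 also moved 1 way in every neuron pair.

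The kainate effects in neurons and glia were compared with each other by an interaction term. Without a block 0 members differed, against 0.00246% of all genes, 0 had an unadjusted p below 0.05, against 0.909% of all genes, and DESeq2 called 0 members and 0.174% of its genes. With the replicate block 2 members differed, against 1.94% of all genes. These were Slc6a11 (log2 1.55 ± 0.31, adjusted p = 0.00284) and Gabrg1 (log2 1.40 ± 0.36, adjusted p = 0.0393), both with the lower value in glia. The same term called 3 of 5 astrocyte, 2 of 5 microglia, 1 of 4 oligodendrocyte and 1 of 3 precursor markers in this direction. It called 1 of 4 meningeal fibroblast markers in the other. Without a block the differences were log2 1.39 ± 0.80 and 1.61 ± 1.08, and without both low-input libraries that fit gave 0.23 for Slc6a11 and -0.16 for Gabrg1. With the pool as a block, added after the data were seen, 0 members were called, against 0.0221% of all genes. For Gad1 (log2 -0.26 ± 0.29 with the replicate block) and Gabrd (log2 -0.77 ± 0.39, adjusted p = 0.782) no difference between the cell types was detected, with errors that leave room for differences of this size.

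**Figure D5:**
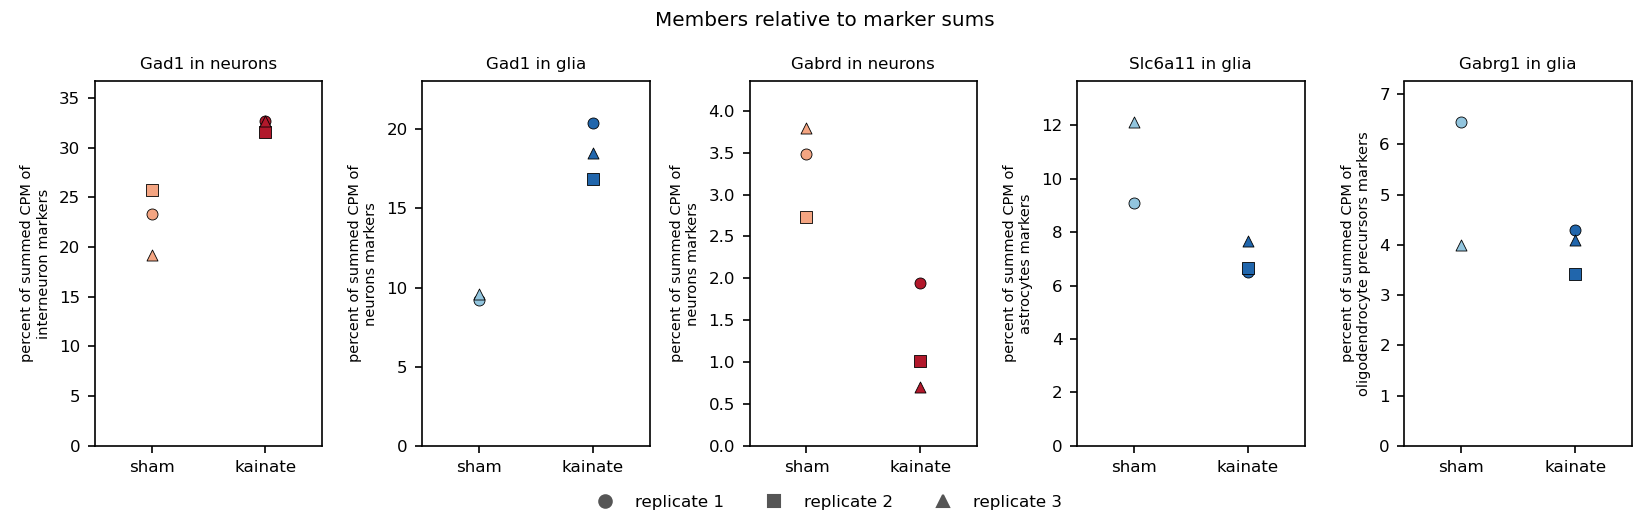
Levels of 4 members as a percentage of the summed CPM of marker genes, in sham and kainate libraries, with marker shape for the replicate number. Gad1 lay higher after kainate than in any sham library on both scales, Gabrd in neurons and Slc6a11 in glia lay lower, and Gabrg1 in glia overlapped.

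Genes that work beside the members were followed as a list of 21, with companions in GABA metabolism, chloride transport, receptor trafficking and GABA-B signalling. Without a block edgeR called 0 of the 21 after kainate in neurons or glia, and Trak2 in neurons alone had an unadjusted p below 0.05. Their median log2 difference was 0.02 in neurons and -0.34 in glia. With the replicate block Trak2, which encodes a kinesin adaptor, and Iqsec3, which encodes an exchange factor of inhibitory synapses, were higher in neurons (log2 0.76 ± 0.18 and 0.62 ± 0.20, adjusted p = 0.00647 and 0.0774) and Slitrk3 and Kctd16 were lower (log2 -0.67 ± 0.18 and -0.60 ± 0.21). Slitrk3 encodes an adhesion protein of inhibitory synapses and Kctd16 an auxiliary GABA-B subunit. In glia Trak2 was higher (log2 0.66 ± 0.22) and Slc12a2, Shisa7 and Slitrk3 were lower. Over all genes the block called 3.19% higher and 1.90% lower in neurons, and 2.93% and 2.86% in glia.

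Between cell types, 11 companions were higher and 4 lower in neurons, with a median log2 difference of 0.90, beside the 16.8% higher, 20.4% lower and median of -0.47 over all genes given above. Among those with the smallest p were Glul, for the glutamine synthetase of astrocytes (log2 -3.67 ± 0.40), the neuronal chloride extruder gene Slc12a5 (3.19 ± 0.37), Shisa7 (2.71 ± 0.33) and Kctd16 (2.77 ± 0.35). Of the 17 interneuron markers 12 were higher in neurons and 1 lower, and their median log2 difference was 1.61, beside the same values over all genes. By p the leading 5 were Dlx6os1 (log2 2.59 ± 0.29), an antisense gene of the Dlx6 locus, Adarb2 (2.10 ± 0.24), Lamp5 (3.27 ± 0.42), Ndnf (-2.64 ± 0.41) and Crhbp (2.33 ± 0.41). Ndnf, a marker of neurogliaform cells, was thus higher in the glia libraries.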

How the data were processed

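Nuclear mRNA of sorted NeuN+ and NeuN- nuclei was amplified with SMART-Seq v4 and sequenced on NextSeq500 or HiSeq3000, and the instrument of each library is not given in the sources used here. The authors trimmed reads with Trim Galore 0.4.3, aligned them with Rsubread to mm10 and counted uniquely mapping reads per gene of GENCODE M16 with featureCounts. The deposited values are these raw counts of 53379 genes in 11 libraries. Strand and pairing settings of the counting are not given in the sources used here. The 11 bisulfite samples were not analysed here. The protocol in the labels speaks of right hippocampi, whereas the table and the study name the left side, which was taken.

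Genes without a symbol (105) were removed, and filterByExpr (minimum count 10, minimum total count 15) kept 40714. Counts were scaled by TMM and fitted with the quasi-likelihood model of edgeR 4.0.16 (glmQLFit, legacy=TRUE) to 4 group means in R 4.3.3, with 7 residual degrees of freedom. Each p was adjusted by the Benjamini-Hochberg method over the genes tested, and genes with FDR below 0.25 were called. The SE is the log2 difference divided by the root of F. Same-numbered kainate and sham libraries deviated together from their group means (Pearson r 0.643, 0.161 and 0.491 in neurons and 0.760 and 0.787 in glia, across genes), so the replicate block is printed where it changes a call, as is the block of pools (r 0.240 to 0.668). Each block fit has 3 residual degrees of freedom, and its errors are moderated by the spread over all genes.

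CPM use TMM factors. Per-kilobase levels use exon lengths of GENCODE M21 (mm10), and start windows and their sequences are of RefSeq on GRCm38.p6, which had entries for 24 members. Alternatives were DESeq2 1.42.0, its size factors, other filters and thresholds, low input as a covariate, separate fits, and leaving out libraries. The fits were tested on simulated data. All 26 members are named. Of the lists of companions and interneuron markers, the genes called after kainate without a block were to be named, and otherwise the 5 with the smallest p between cell types, of which 1 companion is not reported here. Genes of these lists called only with the block were named after their values were seen, as were shares of marker sums. The members and lists were chosen with earlier results of these data known.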

Additional observations from a re-analysis of the deposited data

Results flagged for a closer look

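The kainate effect differed between neurons and glia in a test of the difference itself for Slc6a11 and Gabrg1. The interaction with the replicate block was log2 1.55 for Slc6a11 (adjusted p = 0.00284) and log2 1.40 for Gabrg1 (adjusted p = 0.0393). Without a block the same differences were 1.39 ± 0.80 and 1.61 ± 1.08 (adjusted p = 1.00 for both), and the pool block gave 1.60 and 1.24 without a call. Without both low-input libraries the fit without a block gave log2 0.23 for Slc6a11 and -0.16 for Gabrg1. Astrocyte, oligodendrocyte, precursor and microglia markers that were lower in kainate glia moved with both genes. The same interaction with the replicate block called 3 of 5 astrocyte, 2 of 5 microglia, 1 of 4 oligodendrocyte and 1 of 3 precursor markers in this direction. It called 1 of 4 meningeal fibroblast markers in the other. The difference was thus not particular to Slc6a11 and Gabrg1, and the part of these markers in it was not tested.

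Gphn, for gephyrin, stood higher after kainate in each of the 3 neuron pairs, by log2 0.0829 to 0.305. It was lower in both glia pairs (log2 -0.64 and -0.09). Gphn was picked by these signs, and the share of all genes with such a pattern was not counted, so the pattern carries no weight by itself. The interaction was log2 0.55 ± 0.29 with the replicate block and was not called (adjusted p = 0.828). Groups of 3 and of 2 libraries are too small for a check of single outlying samples.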

How the results depend on the processing

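With the replicate block 5 members were called in neurons, 5 in glia and 2 for the difference between the cell types, in place of 0 in each. Between neurons and glia the pool block added Abat, Gphn and Nlgn2. The blocks changed no other call of a member. No other alternative called a member in neurons or for the difference. These were DESeq2, its size factors, no filter, a CPM of at least 1 in 3 libraries, the newer method of edgeR, FDR below 0.05, low input as a covariate, leaving out both low-input libraries or each library, the separate fit (neurons) and the pool block (difference). Leaving out single libraries gave 0 to 0 calls in neurons and for the difference, and 0 to 6 in glia, where the 6 came without sham glia replicate 3. Between neurons and glia 17 to 22 members were called when a library was left out, and 15 to 22 under the other alternatives.

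Of the results followed under every alternative, the direction turned in 9 cases, none of them called. Leaving out single libraries, Gabra5 after kainate in neurons ranged from log2 -1.12 to 0.20 (without sham neurons replicate 1), and Gabrg1 in glia from -2.42 to 0.10 (without sham glia replicate 1). Without both low-input libraries Gabrg1 stood at 0.29 in glia and its difference between the cell types at -0.16. Between neurons and glia, Abat ranged from -0.051 to 0.64 and Gphn from -0.12 to 0.76. Both fell below 0 when replicate 3 of either glia group was left out (Abat at -0.051 and -0.025, Gphn at -0.11 and -0.12). With sham libraries only, Gphn stood at -0.13. Gabra6, Gabrg1, Gabre and Gabbr1 lost the call between neurons and glia when single libraries were left out. For Gabra6 and Gabre these were replicates 1 and 2 of kainate neurons, the first sham neuron library and the last sham glia library, and for Gabre also the second sham neuron library. For Gabrg1 it was the first and for Gabbr1 the last sham glia library. In sham libraries only, Gabra3 (edgeR adjusted p = 0.396), Gabbr1, Gabra6 and Gabre were not called, nor in kainate libraries only Gabra6, Gabre and Gabrg1. Gabrp, not followed under every alternative and not called with all libraries, was called higher in neurons without sham glia replicate 3, against its direction with all libraries, and lower without sham glia replicate 1. In glia some members that were not called also changed sign with the replicate block, Gabrp among them. The cause was not tested. The number of pools limits the precision, and for the 6 members below 6 CPM the read depth does so too.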
